A study of Mus musculus with 6 samples.

Results

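The 10 genes described here encode the enzymes that methylate lysine 4 of histone H3 (H3K4) and the core proteins they work with. They were chosen by name: the methyltransferases Kmt2a, Kmt2b, Kmt2c, Kmt2d, Setd1a and Setd1b, the shared subunits Ash2l, Wdr5 and Rbbp5, and Cxxc1, a subunit of the SETD1 complexes. All 10 were found among the 36065 genes of the table, each as a single record, and 9 were high enough to test. The libraries came from wild-type mouse 1-cell embryos (zygotes) cultured in vitro with DMSO, the solvent control, with CBR-5884, an inhibitor of serine metabolism, or with CBR-5884 and S-adenosylmethionine (SAM). The groups are called DMSO, CBR and CBR+SAM, and each held 2 biological replicates. The number of embryos in a library and the doses are not given in the sources used here, and no group received SAM alone.

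As background, every one of these methyltransferases takes its methyl group from SAM, which the cell makes from methionine in a cycle fed by serine through folate. SETD1A and SETD1B lay down much of the trimethylated H3K4 at active promoters, KMT2A and KMT2B act at CpG-rich promoters and regulatory genes, and KMT2C and KMT2D are best known for monomethylated H3K4 at enhancers. Each enzyme is weakly active alone and is activated by the core of WDR5, RBBP5, ASH2L and DPY30. In the growing mouse oocyte KMT2B is the main source of the broad trimethylated H3K4 domains that the egg hands to the zygote.

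Values are abundances per transcript length, which allows for length when levels are compared between genes. Whether transcripts of different genes were captured equally well was not tested, so levels and ratios between genes are those of the sequenced cDNA. The 2 members at the ends of the methyltransferase levels were Kmt2c, with a mean of 44.1 over the 6 libraries, and Kmt2a, with a mean of 0.101. Their promoters are shown because KMT2A, KMT2B and CXXC1 carry a zinc finger that binds unmethylated CG, and capitals mark each CG on the printed strand, which is its own reverse complement. The sequences are the 250 bases before the start site in RefSeq (GRCm38.p6, the build also called mm10), 5′ to 3′ on the minus strand, from chr5:25498784-25499033 for Kmt2c and chr9:44881290-44881539 for Kmt2a.
Kmt2c: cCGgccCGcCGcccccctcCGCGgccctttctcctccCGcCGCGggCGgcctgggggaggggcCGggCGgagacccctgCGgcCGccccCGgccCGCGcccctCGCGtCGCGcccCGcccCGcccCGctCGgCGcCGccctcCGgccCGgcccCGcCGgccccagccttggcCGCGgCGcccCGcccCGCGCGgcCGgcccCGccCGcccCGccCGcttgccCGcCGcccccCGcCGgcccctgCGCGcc
Kmt2a: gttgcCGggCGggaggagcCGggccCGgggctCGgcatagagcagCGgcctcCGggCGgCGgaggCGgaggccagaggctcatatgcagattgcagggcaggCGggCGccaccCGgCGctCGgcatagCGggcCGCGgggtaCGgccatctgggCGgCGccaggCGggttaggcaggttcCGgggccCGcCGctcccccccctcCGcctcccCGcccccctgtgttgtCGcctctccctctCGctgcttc
The Kmt2c window held 48 CG, a number reached by 0.186% of the 32851 windows of that length in the promoter table, and the Kmt2a window held 29, reached by 6.78%. Kmt2d held 26, Setd1a 25, Wdr5 12 and Rbbp5 10. These 6 members had an entry. Both printed windows were thus rich in CG, although the levels of the genes lay at opposite ends.

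The methyltransferases form pairs of related genes, so it was measured how far their transcripts can be told apart. The stretches below show, for the coding exons of the KMT2 pairs, the longest run of identical bases (capitals) with the bases around it, in the GENCODE M21 annotation of mm10. The Kmt2a and Kmt2b stretches lie in exon 14 (chr9:44833924-44834003, minus strand) and exon 15 (chr7:30580456-30580535, minus strand). Those of Kmt2c and Kmt2d, in exon 36 (chr5:25315739-25315835, minus strand) and exon 40 (chr15:98845633-98845729, minus strand), are a repeat of CAG.
Kmt2a: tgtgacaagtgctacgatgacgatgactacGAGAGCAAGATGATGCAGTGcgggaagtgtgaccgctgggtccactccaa
Kmt2b: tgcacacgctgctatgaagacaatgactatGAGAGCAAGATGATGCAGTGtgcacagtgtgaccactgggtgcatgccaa
Kmt2c: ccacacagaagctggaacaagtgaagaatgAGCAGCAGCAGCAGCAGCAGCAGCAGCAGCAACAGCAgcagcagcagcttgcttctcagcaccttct
Kmt2d: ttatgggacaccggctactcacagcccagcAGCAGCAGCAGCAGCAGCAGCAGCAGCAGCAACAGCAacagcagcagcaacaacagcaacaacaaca
The longest shared run was 20 bases for Kmt2a and Kmt2b and 37 for Kmt2c and Kmt2d. It was also 20 for Wdr5 and Wdr5b, a related gene. Kmt2a and Kmt2b, and Wdr5 and Wdr5b, therefore shared no run of 31 bases in these coding sequences, the word length by which kallisto commonly assigns reads. The setting used by the authors is not given in the sources used here.

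Other records of the table did share such words with some members. For Setd1a, 51.8% of its 31-base words also occurred in other genes, nearly all in Gm49388, which was listed at 0 in all 6 libraries. For Rbbp5 the share was 11.3%, all in the processed pseudogene Gm11977, which lay between 0 and 0.194. Kmt2d shared 2.40% of its words, most with the processed pseudogene Gm47184, which stood at 20.4 and 14.0 in the DMSO libraries, 18.2 and 11.5 in the CBR libraries and 17.7 and 16.3 in the CBR+SAM libraries. For the other members the share was at most 3.28%. How reads were divided between Kmt2d and Gm47184 was not tested.

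The libraries were those of eggs and early embryos. The 9 egg and embryo markers, such as Dppa3, Zp3 and Gdf9, summed to between 25890 and 32580. The sums were 237 to 616 for 9 cumulus cell genes, nearly all of it Serpine2, 9.95 to 14.7 for 4 sperm genes, 4.86 to 6.96 for 4 oviduct genes and 0 to 0.719 for 5 blood cell genes. Serpine2 was low in 1 library, CBR+SAM replicate 2, at 224.5 against 496 to 602 in the other 5. Among the other cumulus genes, Cyp19a1 lay between 8.14 and 13.6, while Ptx3, Amh and Foxl2 lay at or near 0. Most of the sperm sum was Prm2, between 9.86 and 14.7. Hbb-bt and the sperm gene Tnp1 were listed at 0 in every library. Read counts are not part of the table. Low values of long genes with a single transcript are spaced in steps of 1 read, which put the depth at about 24.3 to 31.3 M reads or read pairs per library, which is approximate because it assumes transcript lengths. In such bulk samples, fewer cells that carry a transcript and less of it in each cell cannot be told apart.

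Kmt2c gave most of the transcripts of the 6 methyltransferase members. It stood at 40.5 and 42.1 in the DMSO libraries, 51.3 and 40.2 in the CBR libraries and 43.4 and 46.8 in the CBR+SAM libraries, which is about 12820 to 17200 reads of its longest coding transcript. CBR replicate 1 was the highest library, and the CBR group spanned both others. Kmt2c made up 72.4% to 76.9% of the summed values of the 6 methyltransferases. Its partner in the pair, Kmt2d, lay far lower in every library. The ratio of Kmt2c to Kmt2d was 14.1 and 15.5 in the DMSO libraries, 14.4 and 12.9 in the CBR libraries and 11.1 and 9.89 in the CBR+SAM libraries, so it was lowest in the libraries with SAM.

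Kmt2d stood at 2.86 and 2.72 in the DMSO libraries, 3.57 and 3.12 in the CBR libraries and 3.91 and 4.73 in the CBR+SAM libraries. The 3 groups did not overlap, with DMSO lowest and CBR+SAM highest. How many of all genes tested show this order of 3 groups was not computed. For pairs of groups, the share higher without overlap was 15.7% (CBR against DMSO), 15.0% (CBR+SAM against CBR) and 12.4% (CBR+SAM against DMSO). Because the transcript is long, 19823 bases in its longest coding form, these low values still rest on about 1101 to 2310 reads. Kmt2d lies on chromosome 15 (98831669 to 98871204, minus strand, mm10).

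The SETD1 enzymes were led by Setd1a. It stood at 7.15 and 7.17 in the DMSO libraries, 6.01 and 6.67 in the CBR libraries and 6.56 and 6.31 in the CBR+SAM libraries. Both DMSO libraries lay above the other 4, by a small margin. Its relative Setd1b stood at 2.56 and 1.77 in the DMSO libraries, 2.16 and 2.41 in the CBR libraries and 2.01 and 2.81 in the CBR+SAM libraries, with all groups overlapping. Setd1a exceeded Setd1b by a factor of 2.25 to 4.05 in every library. Cxxc1, whose protein brings the SETD1 enzymes to unmethylated CG, stood at 8.96 and 8.02 in the DMSO libraries, 8.11 and 8.16 in the CBR libraries and 7.34 and 10.2 in the CBR+SAM libraries. The lowest and the highest Cxxc1 values were both in the CBR+SAM group.

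Of the other pair, only Kmt2b was present at a level that could be tested. Kmt2b stood at 2.33 and 3.71 in the DMSO libraries, 3.65 and 2.84 in the CBR libraries and 2.80 and 3.95 in the CBR+SAM libraries, so each group held a low and a high library. Kmt2a stood at 0.376 and 0 in the DMSO libraries, 0.0200 and 0.00490 in the CBR libraries and 0.189 and 0.0193 in the CBR+SAM libraries. On its longest coding transcript of 16470 bases this is about 154 and 0 reads in the DMSO libraries, 7.12 and 2.04 in the CBR libraries and 74.7 and 7.82 in the CBR+SAM libraries. The value of 0 in DMSO replicate 2 allows a level of up to 0.00894 (3 reads, counting error only). Most of the Kmt2a reads thus came from 1 DMSO and 1 CBR+SAM library, the groups overlapped, and no fold change is given. Kmt2a lies on chromosome 9 (44803355 to 44881296, minus strand, mm10).

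The shared core subunits were more abundant than the methyltransferase members other than Kmt2c. Wdr5, the protein that holds the complex together and binds the methyltransferase, stood at 45.0 and 34.8 in the DMSO libraries, 41.4 and 35.6 in the CBR libraries and 43.8 and 37.5 in the CBR+SAM libraries. Replicate 1 was above replicate 2 in each group, and the 3 first replicates all lay above the 3 second replicates. Wdr5 was the only 1 of the 9 tested members split in this way. Over all 12249 genes tested, 8.24% had all first replicates higher and 9.17% had them all lower.

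Rbbp5, which with ASH2L activates the enzyme, stood at 31.6 and 28.2 in the DMSO libraries, 28.3 and 29.0 in the CBR libraries and 32.6 and 24.7 in the CBR+SAM libraries. Its CBR+SAM libraries spanned all others. Ash2l stood at 15.6 and 14.8 in the DMSO libraries, 12.8 and 12.5 in the CBR libraries and 15.2 and 14.1 in the CBR+SAM libraries. The 2 CBR libraries were the lowest of the 6, and the DMSO and CBR+SAM libraries overlapped. Ash2l lies on chromosome 8 (25815996 to 25847694, minus strand, mm10).

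Within the core, Wdr5 exceeded Ash2l by a factor of 2.36 to 3.23 and Rbbp5 exceeded it by 1.75 to 2.32. Dpy30, the remaining core subunit and a small protein that dimerises on ASH2L, stood far above them, at 1659 and 1505 in the DMSO libraries, 1842 and 1795 in the CBR libraries and 1769 and 2013 in the CBR+SAM libraries. This was 102 to 144 times the level of Ash2l, and 0.694% of the tested genes had a higher mean.

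**Figure D1:**
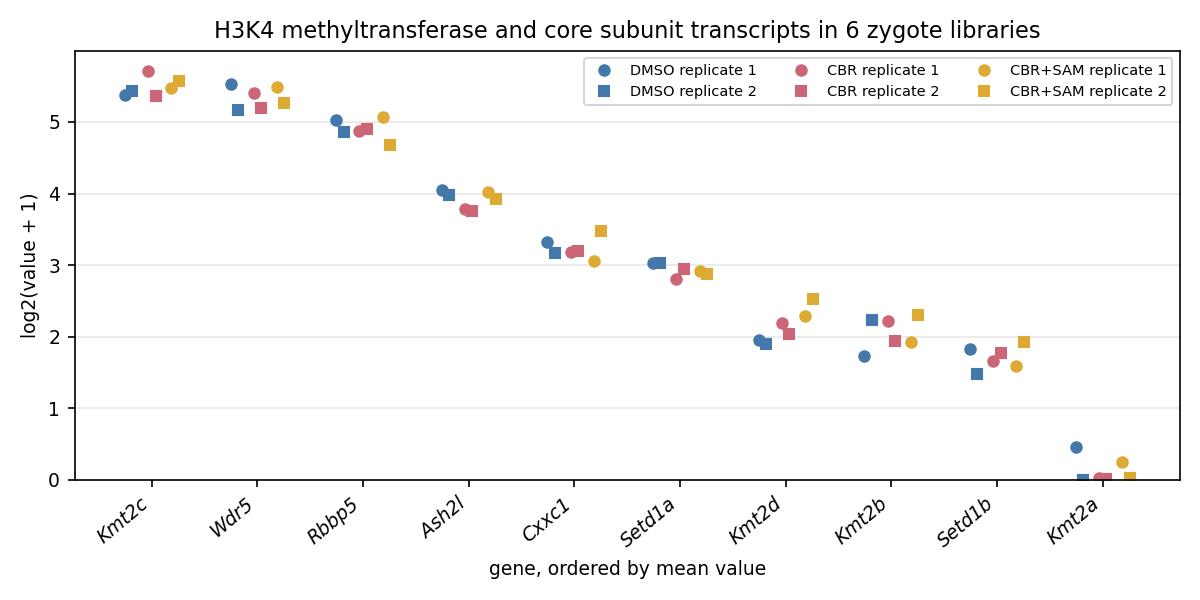
Level of each gene as log2(value + 1) on the vertical axis, with the genes ordered by their mean over the 6 libraries and 1 point per library (circles replicate 1, squares replicate 2, colours the groups). Kmt2c and Wdr5 lead at means of 44.1 and 39.7, Kmt2a is near 0, and the groups lie close together in every gene.

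In the order of mean levels, Kmt2c (44.1) was followed by Wdr5 (39.7), Rbbp5 (29.0), Ash2l (14.2), Cxxc1 (8.46), Setd1a (6.64), Kmt2d (3.48), Kmt2b (3.21), Setd1b (2.29) and Kmt2a (0.101). The 9 neighbouring pairs were compared on log2(value + 1) with a two-sided exact permutation test that flips the sign of the difference in each of the 6 libraries, with Benjamini-Hochberg adjustment over the 9 pairs. The pairs and their direction were set by the means of these same 6 libraries, so the p-values are no separate check of the order. In 6 pairs the first gene was higher in 6 of 6 libraries, with adjusted p = 0.0469 in this exact permutation test, where 0.03125 is the smallest unadjusted p it can give. Kmt2c and Wdr5 did not differ beyond their spread (higher in 4 of 6 libraries, adjusted exact permutation p = 0.141), nor did Kmt2d and Kmt2b (4 of 6, 0.438) or Kmt2b and Setd1b (5 of 6, 0.0804). The place of Kmt2b relative to Kmt2d and Setd1b is therefore not settled.

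The comparison of CBR with DMSO asked whether blocking serine metabolism alters transcripts of these enzymes. None of the 9 tested members was called by limma at an adjusted p of 0.05, where 0.0% of the 12249 genes tested were called, and 0 of 9 had an unadjusted p under 0.05, against 2.12% of all genes. Ash2l had the smallest p, at 15.2 ± 0.61 with DMSO and 12.6 ± 0.22 with CBR (mean ± SD, n = 2). Its log2 change was -0.25 (SE 0.16, 95% interval -0.62 to 0.12; unadjusted p = 0.158, adjusted p = 0.9999, limma). Setd1a stood at 7.16 ± 0.0147 and 6.34 ± 0.467, a log2 change of -0.15 (SE 0.17, 95% interval -0.56 to 0.25). Kmt2d stood at 2.79 ± 0.0993 and 3.34 ± 0.317, a change of 0.19 (SE 0.19, 95% interval -0.27 to 0.65).

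The fitted log2 changes of the 9 members ran from -0.247 to 0.193, with 4 positive and 5 negative (48.3% of all genes tested were positive) and a median of -0.044, beside -0.007 over all genes tested. This balance rested on single libraries: the median was 0.022 with 6 positive without DMSO replicate 1, -0.125 with 3 positive without DMSO replicate 2, and 0.01 with 5 positive without CBR replicate 2, and 2 members were positive without CBR replicate 1. Their 95% intervals reached from -0.615 to 0.699, so a change of 1 on the log2(value + 1) scale lay outside the interval of every tested member. Changes within these intervals could not be told from 0 with 2 libraries a group. In 3 members the groups did not overlap, Kmt2d higher and Setd1a and Ash2l lower, beside 15.7% of all genes tested higher and 17.3% lower. Kmt2c, the most abundant of the 6 methyltransferase members, had an interval of -0.26 to 0.53. That of Kmt2b, the enzyme of the oocyte domains, was -0.51 to 0.70.

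**Figure D2:**
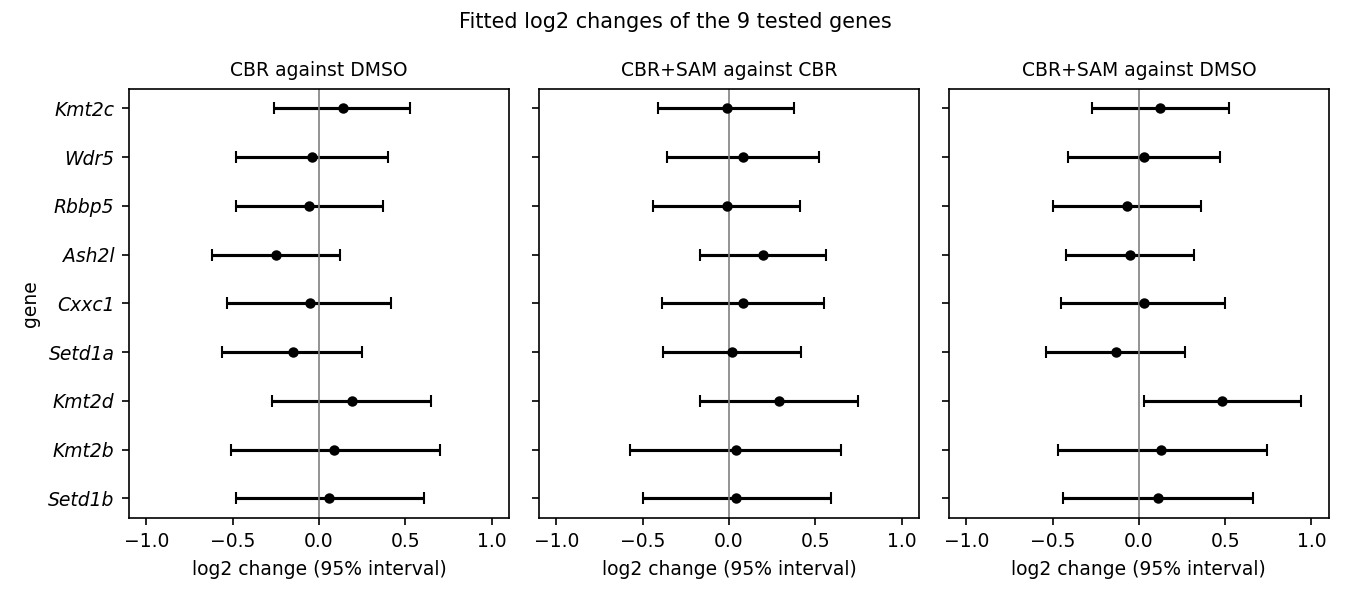
Fitted log2 change (points) with its 95% interval (bars) on the horizontal axis for the 9 tested genes, in 3 panels for the 3 comparisons. Each interval crosses 0 except that of Kmt2d in CBR+SAM against DMSO, which runs from 0.03 to 0.94.

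Adding the methyl donor to inhibited embryos was examined by comparing CBR+SAM with CBR. It shares the CBR libraries with the comparison above. None of the 9 members was called, where 0.00816% of all genes tested were (1 gene, not a member), and 0 of 9 had an unadjusted p under 0.05 against 3.09% of all genes. Ash2l averaged 12.6 ± 0.22 in CBR embryos and 14.6 ± 0.749 in CBR+SAM embryos, a log2 change of 0.20 (SE 0.16, 95% interval -0.17 to 0.56; adjusted p = 0.988, limma). Kmt2d stood at 3.34 ± 0.317 and 4.32 ± 0.584, a log2 change of 0.29 (SE 0.19, 95% interval -0.17 to 0.75; adjusted p = 0.988, limma). These were the 2 members whose groups did not overlap, both higher, beside 15.0% of all genes tested, and no member was lower, beside 12.5%. The log2 changes of the 9 members ran from -0.013 to 0.291, 7 of them positive beside 52.4% of all genes, with a median of 0.044 beside 0.014 over all genes. The median was 0.16 without CBR replicate 1, 0.084 without CBR replicate 2 and 0.146 without CBR+SAM replicate 1, each with 6 positive. It was 0.044 with 5 positive without CBR+SAM replicate 2. With libraries rescaled to a common sum it was 0.014 with 6 positive, beside -0.021 over all genes tested.

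In CBR+SAM against DMSO, which shares libraries with both other comparisons, again no member was called, where 0.00816% of all genes tested were. Kmt2d was the 1 member of 9 with an unadjusted p under 0.05, beside 2.14% of all genes. It stood at 2.79 ± 0.0993 with DMSO and 4.32 ± 0.584 with CBR+SAM, higher in both libraries, with a log2 change of 0.48 (SE 0.19, 95% interval 0.03 to 0.94; unadjusted p = 0.0413, adjusted p = 0.9997, limma). Leaving out 1 library at a time leaves 1 in a group, so only the change is given for those 6 fits. The change was 0.596 without CBR+SAM replicate 1, and 0.372 without CBR+SAM replicate 2, in which Serpine2 was low. It was 0.511 and 0.457 without DMSO replicates 1 and 2, and 0.48 without CBR replicate 1 or 2. The unadjusted p of Kmt2d rose to 0.0611 (limma) with libraries rescaled to a common sum and to 0.0624 with only these 2 groups in the fit. The groups did not overlap in 3 members, Kmt2c and Kmt2d higher and Setd1a lower, beside 12.4% of all genes higher and 12.1% lower. The median change of the 9 members was 0.032, beside -0.005 over all genes tested, and 6 of the 9 were positive beside 49.0% of all genes. The median was 0.096 without DMSO replicate 1, -0.073 with 3 positive without DMSO replicate 2, 0.177 with 5 positive without CBR+SAM replicate 1 and -0.003 with 4 positive without CBR+SAM replicate 2. With libraries rescaled to a common sum it was -0.049 with 4 positive, beside -0.077 over all genes tested.

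**Figure D3:**
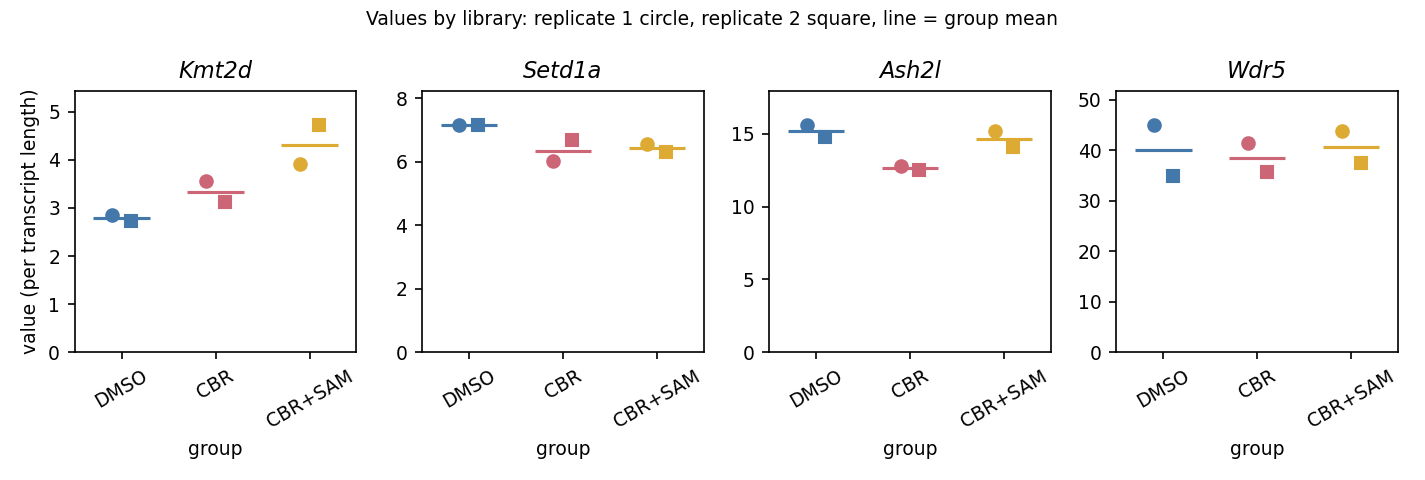
Value per transcript length on the vertical axis (from 0) in each library for Kmt2d, Setd1a, Ash2l and Wdr5, with group means as lines. Kmt2d lies at 2.72 to 2.86 with DMSO and 3.91 to 4.73 with CBR+SAM, and Wdr5 is higher in replicate 1 (circles) than in replicate 2 (squares) of each group.

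Partner proteins that distinguish the complexes were examined as a fixed list. The SETD1 partners were Wdr82, which links the complex to RNA polymerase II, at a mean of 25.4, Hcfc1 at 2.93, Bod1 at 147 and Bod1l at 17.9. The KMT2A and KMT2B partners were Men1 (menin) at 2.23, Psip1, which tethers the complex to chromatin, at 314, and Hcfc2 at 8.47. The KMT2C and KMT2D partners were Ncoa6 at 49.7, Paxip1 at 14.4, Pagr1a at 7.64 and Kdm6a, an H3K27 demethylase, at 54.9. Together with Dpy30, 0 of these 12 genes were called in any of the 3 comparisons by limma, where at most 0.00816% of all genes tested were.

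The partner with the smallest unadjusted p was Paxip1 in CBR against DMSO. It stood at 11.6 and 12.7 in the DMSO libraries, 18.4 and 15.9 in the CBR libraries and 13.0 and 15.1 in the CBR+SAM libraries. Its log2 change with CBR was 0.47 (SE 0.17, 95% interval 0.06 to 0.87; unadjusted p = 0.0305, adjusted p = 0.9999, limma), with both CBR libraries above both DMSO libraries. Over all genes tested in this comparison, 2.12% had an unadjusted p under 0.05 and 15.7% were higher without overlap. Pagr1a, whose protein binds PAXIP1, varied widely within groups, at 3.86 and 9.21 in the DMSO libraries, 8.25 and 2.91 in the CBR libraries and 8.19 and 13.4 in the CBR+SAM libraries. Kdm6a was the steadiest, between 53.7 and 56.5 in all 6 libraries.

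**Figure D4:**
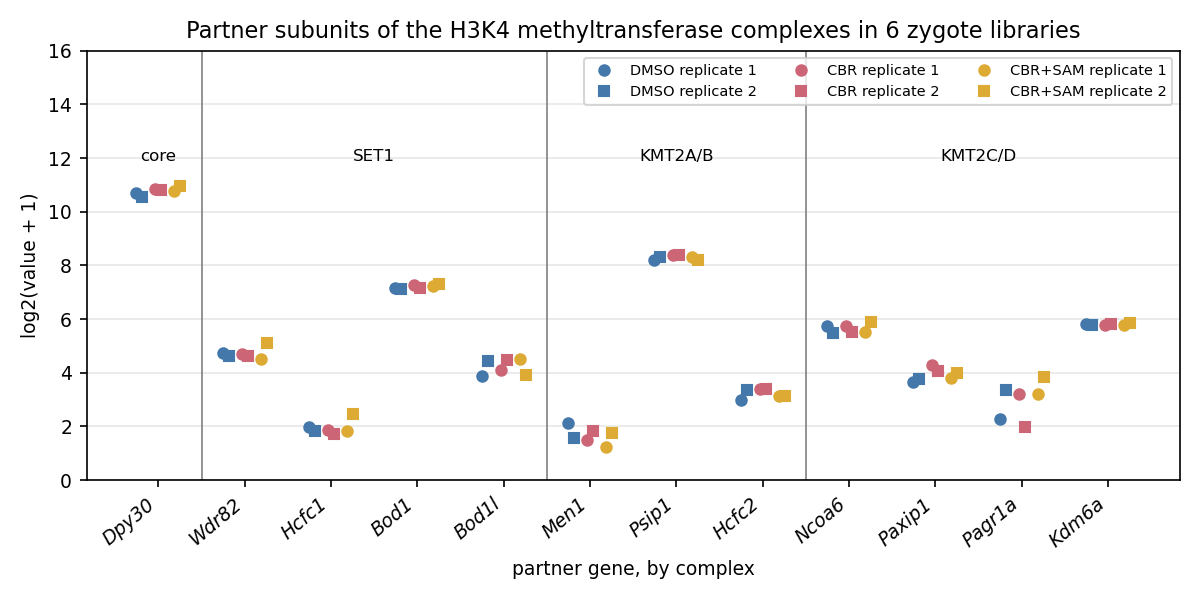
Level of 12 partner genes as log2(value + 1) on the vertical axis, grouped by complex along the horizontal axis, with 1 point per library (circles replicate 1, squares replicate 2). Dpy30 lies far above the rest at a mean of 1764, Kdm6a varies least, and Pagr1a spreads from 2.91 to 13.4.

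A pair of further lists lie next to H3K4 methylation. Of their tested genes, 0 were called in any comparison by limma, where at most 0.00816% of all genes tested were. Of 8 other SET-domain and related genes, 6 were tested, and Setd7 and Smyd1 stayed at or below 0.206. Smyd3 was the highest at 50.9. Kmt2e, a relative of the KMT2 genes without shown methyltransferase activity, stood at 8.08 and 6.59 in the DMSO libraries, 12.5 and 8.37 in the CBR libraries and 9.53 and 13.0 in the CBR+SAM libraries (CBR+SAM against DMSO, log2 change 0.55, SE 0.25, adjusted p = 0.9997, limma). All 9 genes of the H2B ubiquitination pathway, which primes H3K4 methylation, were tested. Rtf1, a subunit linked to the PAF1 complex, stood at 45.5 and 53.5 in the DMSO libraries, 58.8 and 64.8 in the CBR libraries and 47.1 and 45.6 in the CBR+SAM libraries. Its log2 change from CBR to CBR+SAM was -0.41 (SE 0.15, 95% interval -0.77 to -0.04; unadjusted p = 0.0332, adjusted p = 0.988, limma). In that comparison 3.09% of all genes tested had an unadjusted p under 0.05.

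The enzymes that remove the mark had a different leading gene. Of 6 H3K4 demethylase genes, Kdm5a averaged 1083, Kdm5d 127.5 and Kdm1b 64.7, against 44.1 for Kmt2c, the highest of the 6 methyltransferase members. Kdm5d stood at 144 and 106 in the DMSO libraries, 135 and 105 in the CBR libraries and 169 and 106 in the CBR+SAM libraries. All its first replicates thus lay above its second replicates. Its relative Kdm5c averaged 5.32, and whether Kdm5d reads could be told from those of related genes was not tested. None of the 6 demethylase genes was called in any comparison by limma, where at most 0.00816% of all genes tested were. Their median log2 change was 0.019 for CBR against DMSO, 0.075 for CBR+SAM against CBR and 0.113 for CBR+SAM against DMSO. Over all genes tested these medians were -0.007, 0.014 and -0.005. Differences between these lists were not tested.

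Among 5587 other protein-coding genes with a mean of at least 10, those most like Kmt2c over the 6 libraries included Nudcd3 (Pearson r = 0.982) and Mfn1 (0.981). Those most like Kmt2d, the member with the largest spread of log2 values, were Grsf1 (0.984), Pak4 (0.965) and Gfm1 (0.963), out of 5588. These are descriptions over 6 libraries that share group and replicate, selected from all of these genes.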

How the data were processed

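Full-length cDNA from 6 libraries of 1-cell embryos (SMART-Seq v4) was tagged with Nextera XT, per the labels' protocols, which name neither stranded preparation nor molecular barcodes. The deposited table holds 1 signal value per gene and library. The tools fastp, kallisto and DESeq2 and the build mm10 are listed in the submitters' processing notes, without versions or roles. The deposited values resemble TPM, but columns sum to 956200 to 1059000, so a further scaling was applied that is not given in the sources used here.

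Symbols came from GENCODE M21 (35820 of 36065 records matched). Values were taken as log2(value + 1), on which changes of low genes look smaller than they are. A gene was tested if 2 or more libraries reached a value of 1 (12249 genes). The fit used limma 3.58.1 in R 4.3.3 with all 3 groups, a trend of variance on mean, 3 residual degrees of freedom, and Benjamini-Hochberg adjustment over all genes at 0.05. The code was tested on simulated data. The p-values reflect only the spread of these libraries, and permuting 2 against 2 could not reach the threshold. All 10 members are named. Some results are not reported here. From the other lists, up to 3 genes with the smallest unadjusted p per comparison could be named, and partner levels are given as a description. The members and lists were chosen with earlier results of these data known, and the split of Wdr5 by replicate number was looked at after its values were seen. Alternatives were other pseudocounts, filters, scalings, gene sets, variance models, a replicate block and leaving out each library.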

Additional observations from a re-analysis of the deposited data

How the results depend on the processing

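None of the tested members was called by limma in any of the 3 comparisons under the 15 alternatives. The median change of the members, and how many were positive, changed when single libraries were left out. Without 1 library at a time the median ran from -0.125 to 0.022 in CBR against DMSO, 0.044 to 0.16 in CBR+SAM against CBR and -0.073 to 0.177 in CBR+SAM against DMSO. In the last comparison it was -0.01 over the 4 members averaging 10 or more, beside -0.018 over all genes averaging 10 or more. With libraries rescaled it was -0.049 in that comparison, beside -0.077 over all genes tested. The order of levels had 6 separated neighbours of 9 under each of its 3 alternatives. The count of called genes over the whole table, 0 in CBR against DMSO and 1 in both other comparisons, depended on the settings. In CBR against DMSO it was 1 with only the 2 groups compared. In CBR+SAM against CBR it was 0 with a pseudocount of 0.1, 0 with low values left unfiltered, 0 among genes averaging 10 or more and 0 with protein-coding genes alone. In CBR+SAM against DMSO it was 0 with each of those 4 settings and 0 with only the 2 groups compared. Leaving out 1 library at a time gave 0 to 2 in CBR against DMSO, 0 to 8 in CBR+SAM against CBR and 0 to 3 in CBR+SAM against DMSO, with the highest counts without DMSO replicate 2 (2 and 3, first and last comparison) and without CBR+SAM replicate 1 (8). At an unadjusted p under 0.05 there were 260, 378 and 262 genes in the 3 comparisons. Leaving out CBR+SAM replicate 1 gave 536, 2369 and 2035, and a replicate block gave 357, 554 and 340. The block changed no call of a member (smallest adjusted p = 0.9034, limma). Differences between replicates correlated across genes between groups at 0.599, 0.258 and 0.12, but nothing in the labels says that a number marks a shared batch. Of 390 values of single members under the alternatives, 34 changed sign, all from changes of at most 0.136 log2 that were not called. With libraries rescaled to a common sum, Setd1a in CBR+SAM against CBR was -0.015, and Wdr5 and Cxxc1 in CBR+SAM against DMSO were -0.049 and -0.049. Without 1 library at a time, the log2 changes in CBR against DMSO ran from -0.158 to 0.343 for Kmt2b, -0.225 to 0.137 for Wdr5, -0.138 to 0.022 for Rbbp5, -0.125 to 0.018 for Cxxc1, -0.117 to 0.244 for Setd1b and -0.037 to 0.308 for Kmt2c. Without 1 library at a time, the log2 changes in CBR+SAM against CBR ran from -0.185 to 0.16 for Kmt2c, -0.045 to 0.085 for Setd1a, -0.125 to 0.213 for Setd1b, -0.151 to 0.23 for Kmt2b, -0.033 to 0.184 for Wdr5, -0.207 to 0.181 for Rbbp5 and -0.132 to 0.291 for Cxxc1. Without 1 library at a time, the log2 changes in CBR+SAM against DMSO ran from -0.118 to 0.382 for Kmt2b, -0.265 to 0.123 for Rbbp5, -0.073 to 0.289 for Setd1b, -0.149 to 0.213 for Wdr5 and -0.185 to 0.238 for Cxxc1. The cause of these shifts was not tested.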
